A study of Mus musculus with 12 samples.

Results

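The fatty acid effect described here is the difference between 4 arrays of liver endothelial cells given fatty acids and 4 arrays of the same cells without them, all from replicates 1 and 3 of a series of 12 arrays. The cells were TSEC, an immortalized mouse line derived from liver sinusoidal endothelial cells (LSEC), the specialised lining cells of the liver capillaries. The series has 4 groups of 3 replicates: free fatty acids (FFA, 0.66 mM oleic acid and 0.33 mM palmitic acid), FFA together with 30 µM INT-767 (label FFA+767), medium alone (Media), and INT-767 alone (label 767), each for 8 h per the labels. The written methods of the study give another fatty acid dose and another time, so the exposure is known only as far as the labels state it. INT-767 is a bile acid derivative that activates the receptors FXR and TGR5. The contrast set the 2 FFA and 2 FFA+INT-767 arrays against the 2 Media and 2 INT-767 arrays of replicates 1 and 3, and the 4 replicate 2 arrays were left out.

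Replicate 2 was left out because of its values, so the choice of arrays rested on the same kind of measurement that the contrast gives. Angptl4 shows the problem. On the replicate 2 arrays it measured 8.23 on the array labelled FFA and 10.24 on the array labelled FFA+767, against 8.08 on the Media array and 10.43 on the array labelled 767 (log2 expression). The array labelled FFA was therefore close to Media, and the array labelled 767 was close to FFA+767. For this reason the fatty acid differences below are given as values with their spread, and where p-values of that contrast are counted they describe the arrays and support nothing. Tests are given for whether the fatty acid difference itself differed with INT-767 or between replicates 1 and 3. The contrast with INT-767 was not the ground of the choice. The contrast between replicates is not free of that choice. Replicate 2 was left out because its FFA and 767 arrays disagreed with the others in fatty acid response genes. Both contrasts rest on the arrays kept, so their p-values hold only for these arrays. The labels call the arrays biological replicates and the methods speak of wells, so the spread behind those p-values is that among these arrays and could be technical.

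Long-chain fatty acids are ligands of the peroxisome proliferator-activated receptors (PPARs), nuclear receptors that switch on genes for fatty acid binding, storage in lipid droplets and oxidation in mitochondria and peroxisomes. Cholesterol and fatty acid synthesis is driven by the SREBP transcription factors, whose processing is held back when membranes hold enough sterol and, for SREBP-1, by unsaturated fatty acids. LSEC lie between the portal blood and the hepatocytes, take up lipids from that blood, and secrete chemokines that draw monocytes and lymphocytes into the liver.

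The 8 arrays measured 25458 transcripts above a log2 floor of 4.5 on at least 1 array, of which 13315 genes carried a single symbol, each represented by its transcript of highest mean level. The array medians of the series lay between 5.76 and 5.87. Cell type markers fitted the endothelial label only in part. Of 23 endothelial genes listed 11 were measured, led by Cd34 and Flt1. Of these 6 averaged under 5, close to the floor: Ptprb, Sox17, Nos3, Mmrn2, Kdr and Eng. Pecam1 and Cdh5 were listed but were not among the genes measured. Of 19 sinusoidal genes only Maf, Ehd3, Gata4 and Cd36 were measured. Among the 8 arrays Cd36 was above the floor only on those with fatty acids, so it does not mark the untreated cells. Stellate cell and fibroblast genes were plentiful (14 of 19 measured, with Fn1 the highest), macrophage genes were few (4 of 20), and Nkg7 was the only lymphocyte gene of 16. Hepatocyte genes were measured for 8 of 20, and 5 of those averaged under 5.

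Each fatty acid array has a matched array of the same replicate and the same INT-767 state, which gives 4 pairs: FFA minus Media and FFA+INT-767 minus INT-767, each in replicates 1 and 3. The fatty acid difference of a gene is the mean of these 4 pair differences on the log2 scale, and its error is the SD over the pairs. Higher in all 4 pairs were 1114 genes (8.37% of the 13315) and lower in all 4 pairs 1602 genes (12%), and of all transcripts 9.2% were higher and 8.94% lower in all 4. A stricter description asks that the 4 fatty acid arrays do not overlap the 4 arrays without fatty acids at all, which held for 179 genes on the high side (1.34%) and 210 genes on the low side (1.58%), and for 1.25% and 1.19% of all transcripts. In the limma fit with INT-767 and replicate number as factors none of the 25458 transcripts had an adjusted p under 0.05 (0%). The smallest was 0.052, shared by 19 transcripts, and 2556 transcripts (10%) lay below 0.05 before adjustment, of which 1326 were higher (5.21%) and 1230 lower (4.83%). With arrays shifted to the same median the balance turned, to 1122 higher and 1466 lower. These counts are given as a description, since the arrays were chosen on this contrast. Some genes would also separate between any 4 and 4 arrays, so non-overlap of a gene is not by itself a response to fatty acids.

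The genes that set the arrays apart were 4 lipid handling genes, and in replicates 1 and 3 all of them were clearly higher with fatty acids. Angptl4, a secreted inhibitor of lipoprotein lipase, measured 10.34 and 10.64 in FFA and 10.21 and 10.49 in FFA+INT-767, against 8.91 and 8.26 in Media and 8.24 and 7.76 in INT-767 (replicate 1 first). The lowest fatty acid array stood well above the highest array without fatty acids, and the mean difference was 2.13 ± 0.56 (SD, n = 4 pairs), or 4.37-fold. Fabp4, which carries fatty acids inside the cell, had the greatest positive difference of the 13315 genes. It measured 9.46 and 9.79 in FFA and 8.29 and 8.23 in FFA+INT-767, against 7.63 and 6.05 in Media and 6.32 and 5.11 in INT-767. Its difference was 2.66 ± 0.92 (SD, n = 4 pairs), 6.33-fold, and both FFA+INT-767 arrays were lower than both FFA arrays.

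Plin2, the main coat protein of lipid droplets outside fat tissue, measured 10.23 and 10.26 in FFA and 10.12 and 10.04 in FFA+INT-767, against 9.75 and 9.29 in Media and 9.42 and 8.96 in INT-767, a difference of 0.81 ± 0.27 (1.75-fold). Cpt1a, which controls entry of long-chain fatty acids into mitochondria, was the most even of the markers. Its pair differences were 0.77, 0.74, 0.80 and 0.82, with a mean of 0.78 ± 0.03 (SD, n = 4 pairs), 1.72-fold. The 4 markers differed in size by replicate, however. The fatty acid difference was greater in replicate 3 than in replicate 1 by 1.53 for Fabp4, 0.86 for Angptl4 and 0.44 for Plin2, while for Cpt1a the gap was -0.01. No test is given for these gaps, since the markers chose the arrays. With all 12 arrays in the fit the differences were 1.41 for Angptl4, 1.94 for Fabp4, 0.49 for Plin2 and 0.52 for Cpt1a.

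**Figure D1:**
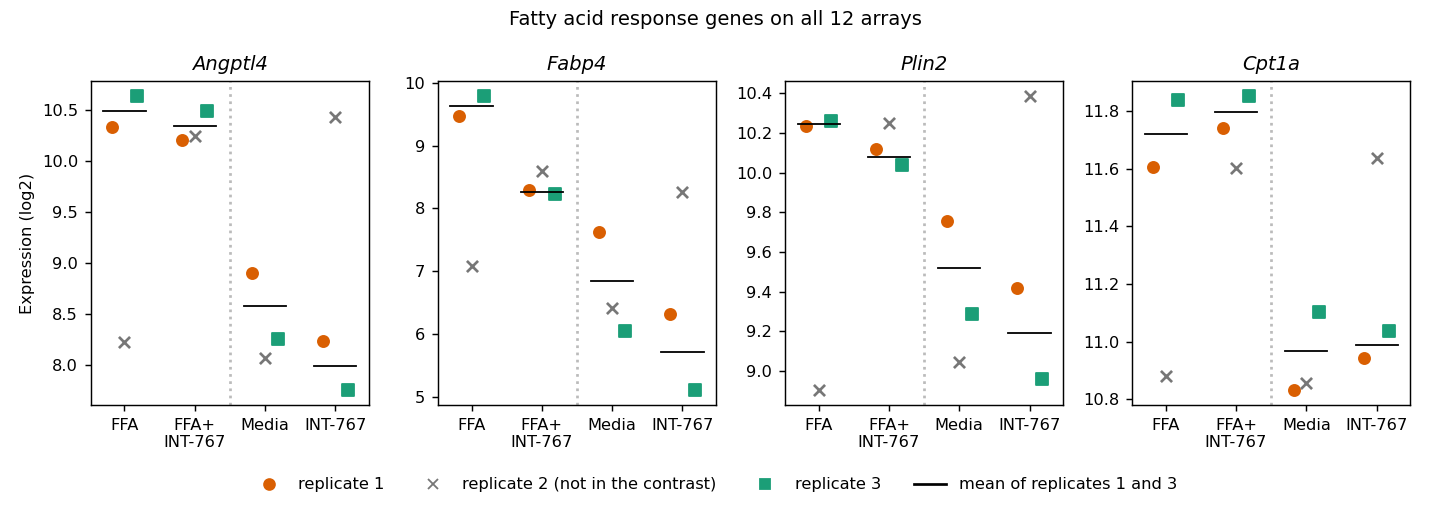
Log2 expression of 4 fatty acid response genes on each array, with the fatty acid groups left of the dotted line and the groups without fatty acids right of it; bars are the means of replicates 1 and 3. In replicates 1 and 3 the 4 fatty acid arrays lie above the 4 others for every gene, while among the replicate 2 arrays (crosses) those labelled FFA+767 and 767 are the high ones.

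The other replicate 2 values ran the same way. Fabp4 measured 7.09 and 8.59 on the arrays labelled FFA and FFA+767 of replicate 2, against 6.42 and 8.27 on those labelled Media and 767. Plin2 measured 8.90 and 10.25 against 9.05 and 10.39, and Cpt1a 10.88 and 11.60 against 10.86 and 11.64, in the same order. Over the 179 genes that did not overlap on the high side in replicates 1 and 3, the array labelled FFA+767 was above the Media array of replicate 2 in 79.3%, the array labelled 767 in 78.8% and the array labelled FFA in 51.4%, while over all genes these shares were 53.1%, 50.6% and 56.1%. Over the 210 genes on the low side the shares above Media were 28.6%, 27.1% and 52.9%. All these shares use the same Media array and are descriptions. Cd36 did not follow the other genes. It was under the floor of 4.5 on all replicate 2 arrays, at 4.06 and 4.19 on those labelled FFA and FFA+767, against 4.24 and 4.33 on those labelled Media and 767.

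PPAR target genes as a group were higher with fatty acids. Of 52 genes listed 38 were measured, and 33 had a positive mean difference, 28 in all 4 pairs and 22 without overlap. The mean difference was positive for 6259 of all 13315 genes. Among all genes 8.37% were higher in all 4 pairs and 1.34% without overlap. The median difference of the list was 0.30, against -0.01 over all genes, and its median in each pair was 0.36 and 0.36 for FFA minus Media and 0.26 and 0.46 for FFA+INT-767 minus INT-767. Without the 4 markers the median of the remaining 34 genes was 0.29, with 18 of them free of overlap. With all 12 arrays in the fit the list's median was 0.22. The list overlaps with those for oxidation and droplets below.

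Uptake genes were led by Cd36, the scavenger receptor that takes up long-chain fatty acids. It measured 6.01 and 7.36 in FFA and 5.04 and 6.22 in FFA+INT-767, against 4.32 and 4.39 in Media and 4.27 and 4.32 in INT-767. All 4 arrays without fatty acids were thus under the floor and all 4 fatty acid arrays above it, and the difference of 1.83 ± 0.90 (SD, n = 4 pairs) was taken against values that were not above the floor. Both FFA+INT-767 arrays were lower than the FFA array of the same replicate. Fabp5, another intracellular carrier, differed by 0.28 ± 0.24, and Fabp3 by 0.10 ± 0.29 with one pair in the opposite direction. Slc22a5, the carnitine importer, differed by 0.52 ± 0.40, and its pair of FFA and Media in replicate 1 was at -0.05. The 15 measured genes of uptake and acyl-CoA activation had a median of only 0.10. Higher in all 4 pairs were 5 of them, against 8.37% of all genes. The 5 include Fabp4, a marker of the array choice.

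The carnitine shuttle moves acyl groups across the mitochondrial membranes, and most of its genes were higher with fatty acids. Besides Cpt1a, the inner membrane transferase Cpt2 differed by 0.44 ± 0.12 and the carrier Slc25a20 by 0.42 ± 0.08 (SD, n = 4 pairs), both without overlap. Crat, carnitine acetyltransferase, differed by 0.25 ± 0.11. Acaca, which makes the malonyl-CoA that inhibits Cpt1a, measured 7.82, 7.79, 7.80 and 7.69 with fatty acids, against 8.09, 8.50, 8.12 and 8.43 without, a difference of -0.51 ± 0.25. Mlycd, which degrades malonyl-CoA, differed by 0.28 ± 0.14. Of the 9 shuttle genes measured 6 were higher and 1 lower in all 4 pairs, against 8.37% and 12% of all genes. The 6 include Cpt1a, a marker of the array choice. Their median was 0.28.

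Within the mitochondrial matrix 15 of 23 beta-oxidation genes were higher in all 4 pairs and 8 without overlap, with a median of 0.14. Across all genes the shares were 8.37% and 1.34%. The acyl-CoA dehydrogenase of long chains, Acadl, measured 10.09 and 10.33 in FFA and 9.98 and 10.27 in FFA+INT-767, against 9.52 and 9.80 in Media and 9.54 and 9.67 in INT-767, and its difference of 0.53 ± 0.07 was among the most even. Acadvl (very long chains) differed by 0.30 ± 0.15, Acads (short chains) by 0.37 ± 0.21 and Acadm (medium chains) by 0.12 ± 0.07. The isomerases Eci1 and Eci2, which let unsaturated chains such as oleic acid be oxidised, differed by 0.49 ± 0.16 and 0.36 ± 0.13. Decr1, the reductase needed for chains with further double bonds, was at -0.03 ± 0.13, and 2 of its pairs were negative. Pdk4, the kinase that shuts off pyruvate dehydrogenase when fat is burnt, measured 10.92 and 11.40 in FFA and 10.77 and 11.33 in FFA+INT-767, against 10.34 and 10.60 in Media and 10.11 and 10.04 in INT-767, a difference of 0.83 ± 0.32. Its relative Pdk2 was at -0.05 ± 0.13.

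Of 29 peroxisomal genes 22 had a positive mean difference, 14 in all 4 pairs and 5 without overlap, at a median of 0.07. The last 2 shares were 8.37% and 1.34% across all genes, and 6259 of all 13315 genes had a positive mean difference. Pex11a, which promotes peroxisome division, measured 7.78 and 7.61 in FFA and 7.52 and 7.59 in FFA+INT-767, against 7.04 and 6.63 in Media and 6.72 and 6.36 in INT-767 (0.93 ± 0.22, SD, n = 4 pairs). Ech1, an isomerase of both organelles, differed by 0.45 ± 0.15 and Cat, catalase, by 0.18 ± 0.08. The bifunctional enzyme Ehhadh was near the floor and its pairs went both ways (-0.01 ± 0.40). The thioesterases Acot1 and Acot2, which release free fatty acids from acyl-CoA, differed by 1.17 ± 0.74 and 0.78 ± 0.12, but they are close copies of each other and their signals may be shared. The Acot1 pair of FFA+INT-767 and INT-767 in replicate 1 was apart, at 0.16 against 1.10, 1.59 and 1.82 in the other pairs.

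Of 25 measured genes for droplets and triglyceride turnover 20 had a positive mean difference, 13 in all 4 pairs and 8 without overlap. The mean difference was positive for 6259 of all 13315 genes. Among all genes 8.37% were higher in all 4 pairs and 1.34% without overlap. Plin2, a marker of the array choice, is among the 20, the 13 and the 8. The median of the list was 0.11. Hilpda, an inhibitor of the triglyceride lipase, measured 8.14 and 8.18 in FFA and 7.98 and 8.16 in FFA+INT-767, against 7.86 and 7.16 in Media and 7.09 and 6.51 in INT-767. The fatty acid arrays were almost level while the others spread over more than a log2 unit, so its pair differences ran between 0.28 and 1.65. Cidec, a droplet fusion protein, was low throughout and differed by 0.55 ± 0.10. The lipase itself, Pnpla2, differed by 0.41 ± 0.22. Plin3, a coat protein of small droplets, went the other way in 3 of 4 pairs (-0.21 ± 0.24), and Lpin1, a phosphatidate phosphatase that is also an SREBP target, was lower without overlap (-0.88 ± 0.40). The PPAR receptors themselves showed little: Ppard was at -0.02 ± 0.12, Ppara was close to the floor, and Pparg was at -0.19 ± 0.32 with nearly all of that in one pair, FFA minus Media of replicate 3 (-0.67).

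A transcript that no pathway list held was among the greatest differences. Mir680-1, a locus of the microRNA miR-680, measured 6.13 and 6.82 in FFA and 6.75 and 6.74 in FFA+INT-767, against 5.19 and 5.87 in Media and 5.36 and 5.87 in INT-767, a difference of 1.04 ± 0.23 (SD, n = 4 pairs). The array cannot tell the mature form from the hairpin transcript. The mature sequence from RefSeq (GRCm38.p6, chr6:129691541-129691561, plus strand) is shown with its seed, bases 2 to 8, in capitals, since the seed decides which messages a microRNA can pair with.
mmu-miR-680: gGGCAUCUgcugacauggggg

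**Figure D2:**
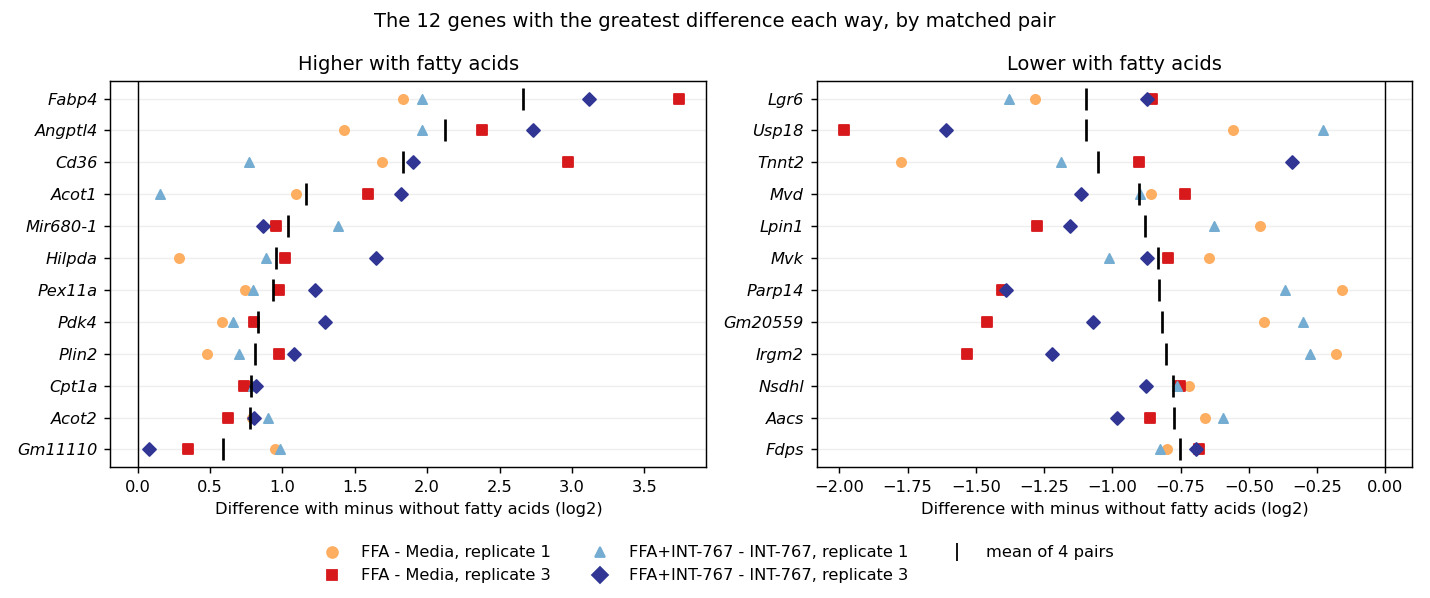
Fatty acid differences (log2, x axis) in each of the 4 matched pairs for the 12 genes with the greatest positive (left) and the 12 with the greatest negative mean difference (right) among those without overlap and with an unadjusted p under 0.05; ticks mark the mean of the 4 pairs. Cpt1a, Nsdhl and Fdps have pairs that nearly coincide, while Usp18, Parp14 and Irgm2 have their large differences in replicate 3 (squares and diamonds).

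Genes of sterol synthesis were lower by nearly the same amount in each pair. Of 17 measured genes of the mevalonate and cholesterol pathway 16 were lower in all 4 pairs, at a median difference of -0.74, and the median of each pair lay between -0.65 and -0.79. Only Ggps1, which leaves the sterol branch to make geranylgeranyl groups, was at 0.02 ± 0.11. Among all genes 12% were lower in all 4 pairs and 1.58% free of overlap on the low side. Of the 16 sterol genes 6 were free of overlap. The rest overlapped because replicate 3 stood higher than replicate 1 with and without fatty acids alike. Msmo1, an oxidase that acts in the removal of methyl groups from sterol intermediates, shows this. It measured 8.50 and 9.50 in FFA and 8.45 and 9.38 in FFA+INT-767, against 9.26 and 10.14 in Media and 9.33 and 10.16 in INT-767. The fatty acid arrays of replicate 3 were thus above the Media array of replicate 1, yet each pair was lower by between 0.64 and 0.88. Hmgcs1, the synthase at the start of the pathway, was at -0.75 ± 0.11.

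The steps to the isoprenoid units were lower by similar amounts, with Mvk at -0.83 ± 0.15, Pmvk at -0.74 ± 0.12, Mvd at -0.90 ± 0.16 and Fdps at -0.75 ± 0.07 (SD, n = 4 pairs). Mvd measured 7.38 and 8.02 in FFA and 7.34 and 7.67 in FFA+INT-767, against 8.23 and 8.75 in Media and 8.24 and 8.78 in INT-767, and these arrays did not overlap. Of the squalene and lanosterol steps Fdft1 was at -0.66 ± 0.05, Sqle at -0.70 ± 0.13, Lss at -0.80 ± 0.13 and Cyp51 at -0.89 ± 0.17. Of the late demethylation and reduction steps Msmo1 was at -0.77 ± 0.10, Nsdhl at -0.78 ± 0.07, Sc5d at -0.58 ± 0.04 and Dhcr7 at -0.70 ± 0.14, while the isomerase Ebp was at only -0.19 ± 0.15.

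The sterol differences were also set against INT-767 and replicate. The median of the 17 genes was -0.06 for the difference with INT-767 minus that without it and -0.06 for replicate 3 minus replicate 1. For Fdft1 the 95% interval with minus without INT-767 was -0.37 to 0.37, and for Cyp51 -0.57 to 0.37, so that shifts within those bounds could not be told from 0. The list does rest on the choice of arrays, since its median was -0.44 with all 12 arrays and -0.65 with the 10 arrays that leave out only those labelled FFA and 767 of replicate 2. On the replicate 2 arrays its median level was 8.83 and 8.52 on those labelled FFA and FFA+767, against 8.65 and 8.30 on those labelled Media and 767.

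Of 15 genes of sterol regulation and uptake 6 were lower and 2 higher in all 4 pairs, against 12% and 8.37% of all genes. Their median of -0.16 was -0.06 without the Media array of replicate 1. Insig1, which retains the SREBP precursor in the endoplasmic reticulum and is itself an SREBP target, was at -0.74 ± 0.22, Stard4, a sterol carrier, at -0.68 ± 0.21 and Srebf2, the sterol SREBP, at -0.36 ± 0.18, all lower in the 4 pairs. Aacs, which feeds ketone bodies into lipid synthesis, was at -0.77 ± 0.18. Of fatty acid synthesis genes Fasn, the synthase, measured 9.95 and 10.09 in FFA and 9.98 and 10.14 in FFA+INT-767, against 10.75 and 10.68 in Media and 10.48 and 10.66 in INT-767. Its arrays did not overlap (-0.60 ± 0.14), nor did those of Scd1, the desaturase that makes oleic acid (-0.62 ± 0.09), or of Acly, which supplies cytosolic acetyl-CoA (-0.46 ± 0.19). Elovl6, the elongase of palmitic acid, was at -0.47 ± 0.20 and Fads2 at -0.34 ± 0.11. Of 23 genes of this list 12 were lower and 3 higher in all 4 pairs, against 12% and 8.37% of all genes. Their median was -0.11. Abca1, the cholesterol exporter and LXR target, was at -0.71 ± 0.19, and the LXR receptor Nr1h3 at 0.21 ± 0.16.

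**Figure D3:**
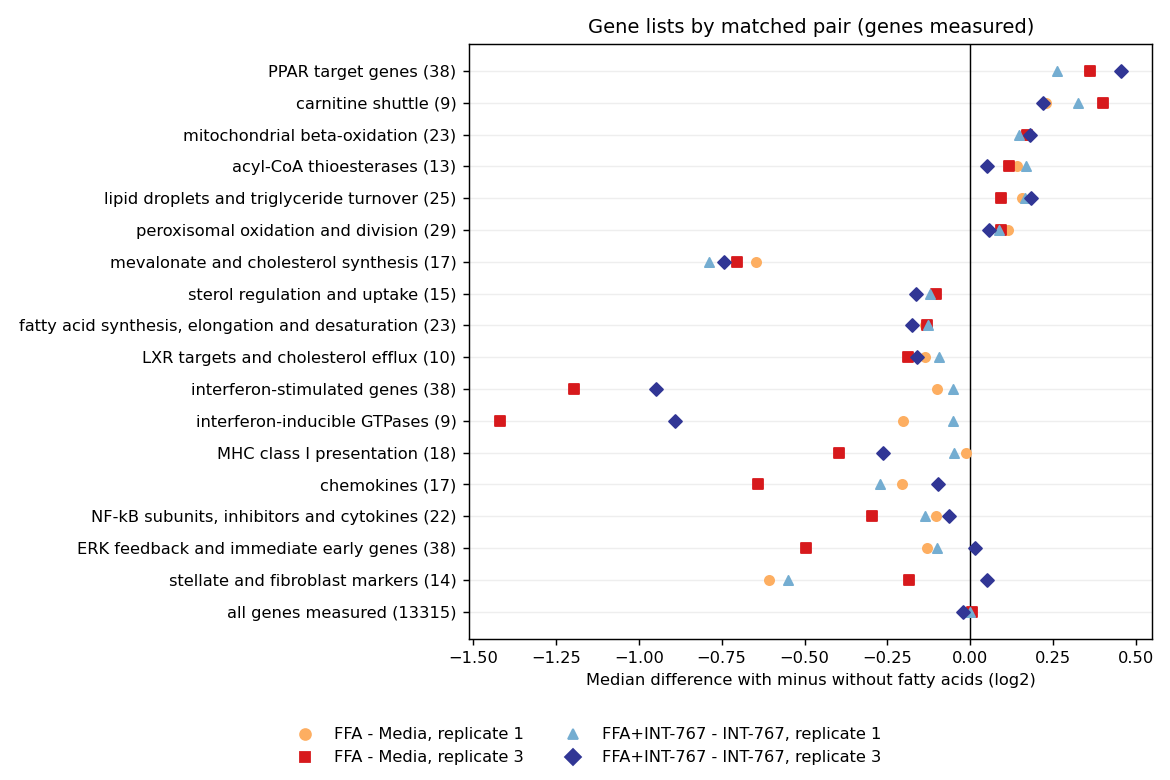
Median fatty acid difference (log2, x axis) of each gene list in the 4 matched pairs, with the number of genes measured. The mevalonate and cholesterol genes lie between -0.65 and -0.79 in every pair, whereas the interferon-stimulated genes lie at -1.19 and -0.95 in the replicate 3 pairs and at -0.10 and -0.05 in those of replicate 1.

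Interferon-stimulated genes were also lower with fatty acids, chiefly in replicate 3. Of 38 genes measured 37 had a negative mean difference, 18 were lower in all 4 pairs and 9 without overlap. The mean difference was negative for 7056 of all 13315 genes. Among all genes 12% were lower in all 4 pairs and 1.58% without overlap. The median difference of the list was -0.56. The median was -0.10 and -0.05 in the pairs of replicate 1 and -1.19 and -0.95 in those of replicate 3, where the pair without INT-767 comes first. Levels show where the difference lay. The median level of the list in FFA and FFA+INT-767 was 7.98 and 7.79 in replicate 1 and 7.48 and 7.49 in replicate 3, against 8.21 and 7.99 in Media and INT-767 of replicate 1 and 8.69 and 8.45 in replicate 3. The Media and INT-767 arrays of replicate 3 were therefore the highest of all, and the fatty acid arrays of replicate 3 lay below those of replicate 1. On all 4 arrays of replicate 2 the list was lower still, between 7.03 and 7.34. With all 12 arrays its median difference was -0.43.

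Single genes followed this pattern. Ifit1, which binds foreign RNA, measured 9.46 and 8.92 in FFA and 9.09 and 8.86 in FFA+INT-767, against 9.57 and 10.80 in Media and 9.26 and 10.45 in INT-767. Its fatty acid difference was -0.14 in replicate 1 and -1.73 in replicate 3, a gap of -1.60 (95% interval -2.01 to -1.19). Rsad2, the antiviral protein viperin, measured 8.22 and 8.40 in FFA and 8.21 and 8.26 in FFA+INT-767, against 8.31 and 10.03 in Media and 8.17 and 9.73 in INT-767. Its gap between the replicates was -1.53 (-1.90 to -1.15). Cmpk2, the neighbour and partner of Rsad2 in the antiviral response, had a gap of -1.81 (-2.22 to -1.40), Rtp4 one of -1.76 (-2.20 to -1.33) and Oas1g, an oligoadenylate synthetase, one of -1.83 (-2.30 to -1.37). For all these genes the limma adjusted p of the gap was 0.29, and no transcript of the 25458 passed (0%). Before adjustment the gap had a p under 0.05 for 34 of the 38 genes, against 5.7% of all genes and 7.48% of all transcripts. This count is a description, since the arrays were chosen by comparing replicates.

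Some members were lower in both replicates without overlap. Usp18, the enzyme that removes ISG15 and damps interferon receptor signalling, measured 9.51 and 8.32 in FFA and 9.46 and 8.40 in FFA+INT-767, against 10.07 and 10.30 in Media and 9.69 and 10.01 in INT-767, so its arrays did not overlap (-1.10 ± 0.84). Irf9, a subunit of the interferon-activated transcription factor complex, was at -0.71 ± 0.42 and Parp14 at -0.83 ± 0.66, also without overlap. Irf7, which amplifies interferon production, was at 0.03 in replicate 1 and -1.58 in replicate 3. The interferon-inducible GTPases Irgm1, Irgm2 and Igtp, which attack vacuoles of intracellular pathogens, were at -0.70 ± 0.73, -0.80 ± 0.68 and -0.93 ± 0.84. Of 9 such GTPases 3 were lower in all 4 pairs, against 12% of all genes. Genes of the MHC class I pathway were lower by less, and again chiefly in replicate 3. Of 18 measured 17 had a negative mean difference, 7 in all 4 pairs and 3 without overlap. The last 2 shares were 12% and 1.58% across all genes, and 7056 of all 13315 genes had a negative mean difference. The median of the list was -0.14. The pair medians were -0.01 and -0.05 in replicate 1 and -0.39 and -0.26 in replicate 3. H2-Q4, a class Ib heavy chain, was at -0.53 ± 0.31 and B2m, the light chain, at -0.09 ± 0.13. The list's median was -0.07 without the FFA array of replicate 3, -0.23 without that of replicate 1 and -0.24 without the INT-767 array of replicate 1.

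Promoters were searched for the motifs of the factors that act on these lists. In the 250 bases before the start site, GAAA followed by any 2 bases and GAAA again, the core of the interferon-stimulated response element (ISRE), occurred on either strand in 9 of the 29 interferon-stimulated genes with a promoter in RefSeq (31.0%) and in 3.46% of all 27025 genes of that table. They occurred in 2 of 14 sterol genes and in none of 30 PPAR targets. The core of the sterol regulatory element, CACNCCAC, occurred in 1 of the 14 sterol genes, Hmgcs1 (7.14%), against 6.05% of all genes, and the PPAR direct repeat, AGGNCA with 1 base between its copies, in none of the 30 PPAR targets, against 0.4% of all genes. A match is a description of the letters and no evidence of binding. The stretches are shown for the interferon genes whose values are given and for Hmgcs1 (GRCm38.p6, on the strand of the gene, matches in capitals, where TTTC repeats are the same core read on the other strand). They are from chr4:156200855-156200916 (Isg15, minus), chr19:34640765-34640833 (Ifit1, plus), chr12:26456543-26456592 (Rsad2, minus), chr5:120887614-120887651 (Oas1g, minus), chr8:71537567-71537622 (Bst2, minus) and chr13:119690195-119690242 (Hmgcs1, plus).
Isg15: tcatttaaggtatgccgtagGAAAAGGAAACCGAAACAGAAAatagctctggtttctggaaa
Ifit1: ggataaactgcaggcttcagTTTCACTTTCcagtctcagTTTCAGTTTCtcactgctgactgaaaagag
Rsad2: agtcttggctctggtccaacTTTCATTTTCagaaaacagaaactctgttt
Oas1g: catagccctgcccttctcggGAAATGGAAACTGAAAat
Bst2: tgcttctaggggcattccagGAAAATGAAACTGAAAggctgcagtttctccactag
Hmgcs1: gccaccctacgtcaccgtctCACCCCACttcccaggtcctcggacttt

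Of these genes Isg15, the ubiquitin-like modifier, had overlapping cores in its promoter and differed by 0.08 in replicate 1 and -1.04 in replicate 3. Bst2, which tethers budding virus particles, differed by -0.31 and -1.27.

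**Figure D4:**
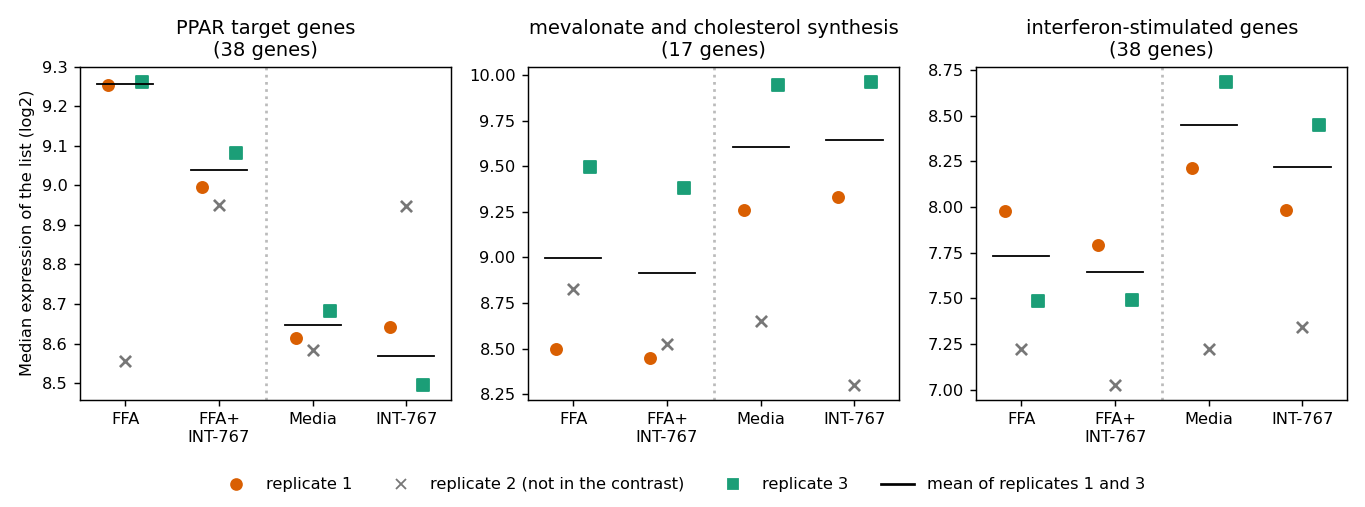
Median log2 expression of 3 gene lists on each of the 12 arrays, with the fatty acid groups left of the dotted line; bars are the means of replicates 1 and 3. The sterol genes of replicate 3 are high with and without fatty acids, the interferon-stimulated genes are highest in Media and INT-767 of replicate 3, and the replicate 2 arrays (crosses) are the lowest for the interferon-stimulated genes.

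Chemokines were lower with fatty acids in most members, and for several of them the difference was smaller with INT-767. Of 17 measured 12 were lower in all 4 pairs, against 12% of all genes, and none was higher in all. Their median was -0.51, or -0.30 with all 12 arrays. Ccl2, which draws monocytes from the blood, measured 7.54 and 7.98 in FFA and 6.41 and 7.62 in FFA+INT-767, against 9.19 and 10.63 in Media and 7.83 and 8.56 in INT-767. Its difference of -1.66 ± 0.72 (SD, n = 4 pairs) left 0.315 times the level, and the groups overlapped because the INT-767 arrays were themselves low. Ccl7, a related monocyte attractant, measured 6.07 and 5.62 in FFA and 5.78 and 5.50 in FFA+INT-767, against 7.79 and 7.21 in Media and 6.05 and 5.74 in INT-767. Its difference was thus -1.73 and -1.58 without INT-767, but only -0.27 and -0.23 with it.

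The test of that contrast gave 1.40 for Ccl7 (with minus without INT-767, 95% interval 0.98 to 1.82), which had the smallest unadjusted p of the named genes but a limma adjusted p of 0.93. For Ccl2 it gave 0.97 (0.11 to 1.83, adjusted p = 1), and for Cxcl16, a membrane-bound attractant of T and NKT cells, 0.72 (0.30 to 1.13, adjusted p = 1). Cxcl16 measured 6.35 and 6.27 in FFA and 6.30 and 6.40 in FFA+INT-767, against 7.25 and 7.39 in Media and 6.73 and 6.58 in INT-767, and was the only chemokine free of overlap (-0.66 ± 0.43). Before adjustment 4 of the 17 chemokines had a p under 0.05 for this contrast, against 1.98% of all genes. Besides Ccl7, the genes with its smallest p-values on the positive side were Trav9d-3, Olfr957, Gm2022 and Gm7444. On the negative side they were Olfr1046, Gm16973, Zfp119b, Gm4971 and Olfr713. Across all transcripts none passed adjustment (0%), and 1131 lay below 0.05 before it (4.44%), 698 of them positive and 433 negative. That split was 542 and 639 when the arrays were shifted to the same median.

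Other chemokines separated by replicate. Cxcl10, an interferon-inducible attractant of T cells, was at -0.63 in replicate 1 and -1.73 in replicate 3 (gap -1.09, 95% interval -1.79 to -0.40, adjusted p = 0.58), and Ccl5 was at -0.33 and -1.63 (gap -1.30, -1.81 to -0.79, adjusted p = 0.45). Cxcl12, the homing signal of blood-forming cells, ran the opposite way, at -1.30 in replicate 1 and -0.16 in replicate 3 (gap 1.14, 0.22 to 2.07, adjusted p = 0.64), and its level was 8.69 and 7.69 in FFA and FFA+INT-767 of replicate 1, against 10.05 and 8.94 in Media and INT-767 of that replicate. Cxcl13, the attractant of B cells, was at -1.33 ± 0.73 and likewise larger in replicate 1. Ccl4, Ccl11 and Ccl17 were close to the floor, between -0.10 and 0.03. The stellate and fibroblast genes, whose median difference was -0.31, were also lower chiefly in replicate 1, with pair medians of -0.61 and -0.55 in replicate 1 and -0.19 and 0.05 in replicate 3. Their median was -0.15 without the Media array of replicate 1 and -0.52 without the FFA+INT-767 array of replicate 3. Their summed linear level ran from 8114 to 12337 on the fatty acid arrays and from 7719 to 18074 on the others. Their part in the lower chemokine values was not tested, and in bulk RNA fewer cells of a type and less RNA per cell cannot be told apart.

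**Figure D5:**
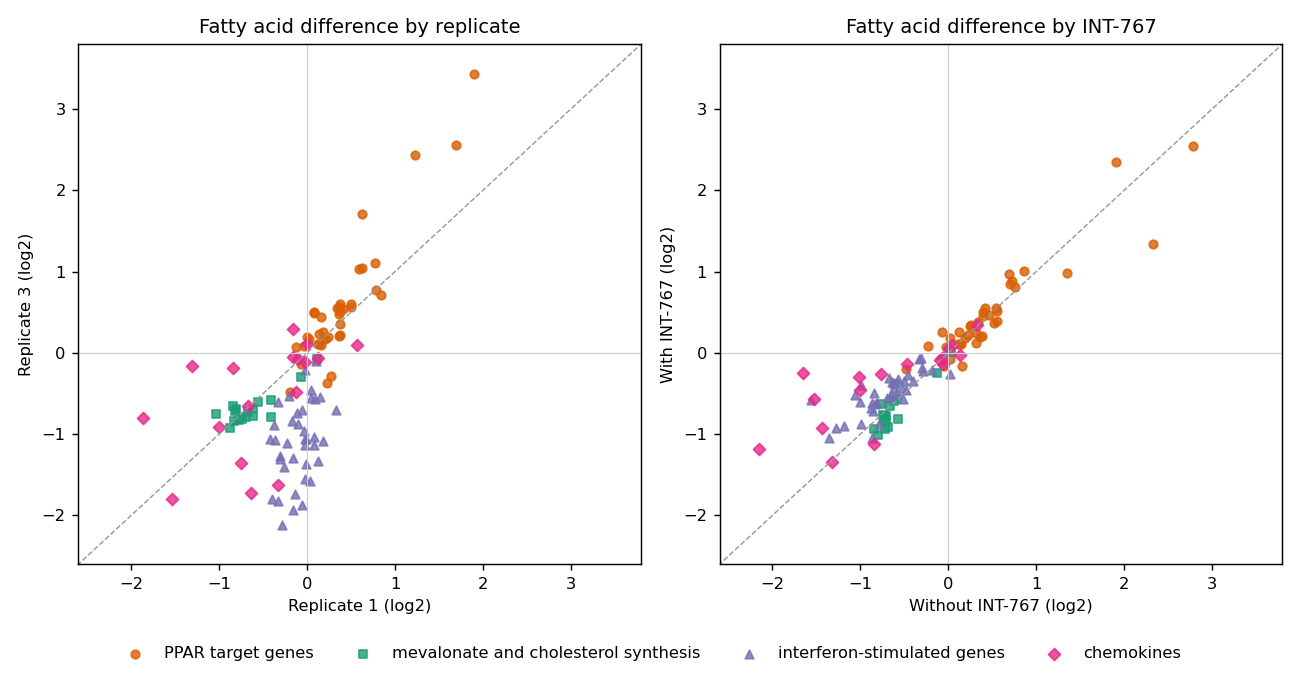
Fatty acid difference (log2) in replicate 3 against replicate 1 (left) and with INT-767 against without it (right), 1 point per gene of 4 lists; the dashed line marks equal differences. Interferon-stimulated genes hang below the line near 0 of replicate 1, sterol genes cluster on the line in both panels, and several chemokines lie above the line in the right panel.

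Genes outside these lists with large negative differences included regulators of growth and differentiation. Lgr6, an R-spondin receptor of the Wnt pathway, measured 6.23 and 5.54 in FFA and 5.40 and 5.49 in FFA+INT-767, against 7.51 and 6.39 in Media and 6.78 and 6.37 in INT-767 (-1.10 ± 0.27). Tnnt2, a troponin of heart muscle, was at -1.05 ± 0.60, also without overlap. Grem1, a secreted BMP antagonist, was at -1.43 ± 0.34 and Gata5, a transcription factor of endoderm and heart, at -0.75 ± 0.08. Both overlapped between the groups and are named here because they were among the transcripts at the smallest adjusted p, after their values had been seen. Edn1, the vasoconstrictor endothelin, measured 5.13 and 4.40 in FFA and 4.26 and 4.34 in FFA+INT-767, against 7.27 and 6.02 in Media and 5.19 and 4.37 in INT-767. Both Media arrays and the FFA and INT-767 arrays of replicate 1 were above 5 and the others close to the floor, so its difference of -1.18 ± 0.91 was partly taken against values at the floor. Nr1h4, which encodes FXR, measured 5.49 and 4.84 in FFA and 5.35 and 5.10 in FFA+INT-767, against 6.39 and 5.58 in Media and 5.65 and 5.55 in INT-767 (-0.59 ± 0.28).

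Genes of the TGF-beta, BMP and Notch response had a median of -0.29, with 20 of 24 negative, 5 lower in all 4 pairs and none without overlap. The mean difference was negative for 7056 of all 13315 genes. Among all genes 12% were lower in all 4 pairs and 1.58% without overlap. Bmp4, a secreted growth factor, was at -0.96 ± 0.27 and Id3, a target of BMP signals, at -0.56 ± 0.56. The median of this list rested on single arrays, being -0.08 without the Media array of replicate 3, -0.15 without the FFA array of replicate 3 and -0.17 without the FFA+INT-767 array of replicate 1. The 8 measured genes of bile acid receptors and FXR targets, Edn1 and Nr1h4 among them, had a median of -0.39. Of these 4 were lower and 1 higher in all 4 pairs, against 12% and 8.37% of all genes. Pltp, the phospholipid transfer protein, was at -0.67 ± 0.23 without overlap.

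Some other lists had medians nearer 0. Genes of ERK feedback and the immediate early response had a median of -0.16 over 38 genes, with -0.50 in the FFA minus Media pair of replicate 3 and values between -0.13 and 0.01 in the other pairs. Genes of the integrated stress response (-0.10 over 35 genes) and of the endoplasmic reticulum chaperones (-0.06 over 28) were slightly low, and NRF2 antioxidant genes (0.04 over 25) and nuclear genes of oxidative phosphorylation (0.07 over 70) slightly high. In all 4 pairs 10 NRF2 genes were higher and 1 lower, and 2 chaperone genes were higher and 9 lower. Of the ERK and immediate early genes 9 were lower and none higher in all 4 pairs. For the stress response genes these counts were 3 lower and 1 higher. Of all genes 8.37% were higher and 12% lower in all 4 pairs. Of the 70 oxidative phosphorylation genes 57 were positive, against 6259 of all 13315 genes. In all 4 pairs 15 of the 70 were positive, against 8.37% of all genes. Just 1 was free of overlap on the high side, against 1.34% of all genes. Cell cycle genes were at 0.02 over 51 genes. Across the 13315 genes the fatty acid differences of replicates 1 and 3 correlated with Pearson's r = 0.28 and those with and without INT-767 with r = 0.48. Genes are not independent replicates, and neither correlation is a test.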

How the data were processed

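RNA of TSEC cultures was hybridised to Affymetrix Mouse Gene 2.0 ST arrays. The authors normalised the scans in Partek 6.6, by RMA per the submitters' processing notes and by its GC-corrected form per the written methods, and deposited log2 expression values for 26076 transcripts on 12 arrays. The lowest of the row maxima is 4.50001, so low transcripts were removed before deposit, and a dim gene may be missing for that reason. The genome build behind the probe annotation is not given in the sources used here. The array number limits the precision, as no counts lie behind these values.

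Symbols came from the platform annotation: 14317 transcripts had 1 symbol, 1397 several and 10362 none, and only those with 1 were named. A gene stands as its transcript of highest mean level. List members were matched by symbol, or by an older symbol in RefSeq's table, and 760 of 1009 list entries were measured. Transcripts above 4.5 on at least 1 of the 8 arrays were kept (25458). limma 3.58.1 in R 4.3.3 fitted fatty acids, INT-767 and replicate number, and 2 further fits added fatty acids by INT-767 and fatty acids by replicate. p-values were adjusted by Benjamini-Hochberg over all transcripts, and intervals are 95%. The fit was tested on simulated data.

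Named genes were to be the 4 markers, the 12 greatest called differences each way, up to 5 members of each list, a chemokine panel, and up to 5 genes each way of the smallest p in each further fit. Since no transcript was called, the 12 each way were taken from genes whose arrays did not overlap and whose p was under 0.05 before adjustment, a rule set after seeing the values. Values of further list members, such as Ifit1 and Cyp51, are given outside this rule. Members and lists were chosen with earlier results of these data known.

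Same-numbered arrays deviated together. The correlations of deviations from group means were between 0.376 and 0.521 over the 6 pairs of the 8 arrays, and between 0.197 and 0.535 over the 18 pairs of all 12, and replicate number was kept in the model as a block. All columns of the table were mapped to samples. Sequences were read from RefSeq tables (GRCm38.p6), and bases after the start site were left out.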

Additional observations from a re-analysis of the deposited data

Results flagged for a closer look

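In the replicate 2 arrays, which the contrast did not use, the 4 marker genes were high on an array labelled as having no fatty acids. On the array labelled FFA+767 Angptl4 stood 2.17 above the Media array of replicate 2, Fabp4 2.17, Plin2 1.20 and Cpt1a 0.74 (log2). On the array labelled 767 the same genes stood 2.36, 1.85, 1.34 and 0.78 above it. These are single arrays with no replicate, and the labels were used as they stand.

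For 17 of 376 groups of 4 arrays examined over 188 named genes (4.52%), 1 array lay far from the other 3 by Dixon's criterion. Its nominal rate of about 1 in 20 holds for 4 like arrays. Each group here mixes arrays with and without INT-767 and of both replicates, so the share cannot be read against that rate. With fatty acids, the FFA array of replicate 1 was the distant one for Mir680-1 (6.13), Lgr6 (6.23), Sod1 (11.88), Pfkfb4 (6.12), Cers2 (10.73), Edn1 (5.13) and Col6a1 (9.93), and the FFA array of replicate 3 for Nars (10.81). The FFA+INT-767 array of replicate 1 was the distant one for Acot1 (6.05), Il33 (6.30), Ndufa6 (9.13), Gata4 (6.30) and Cyp3a11 (4.70). Without fatty acids, it was the Media array of replicate 1 for Pltp (6.88) and Nr1h4 (6.39), the INT-767 array of replicate 1 for Cidec (4.32) and that of replicate 3 for Acads (8.58).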

How the results depend on the processing

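The count of transcripts with an adjusted p under 0.05 for fatty acids was 0 in the main fit and 0 with no replicate block, with no filter and with all 12 arrays, but it was 18 with a floor passed on at least 3 arrays, 19 with arrays shifted to the same median, 14 with quantile normalization again, 40 with an intensity trend and robust prior, 15 with array weights and 5 with 10 arrays. It was between 0 and 1 on leaving out single arrays, the 1 being without the FFA+INT-767 array of replicate 3. At an unadjusted p under 0.05 the main count of 2556 became 1167 with no replicate block. For fatty acids by INT-767 and fatty acids by replicate the count was 0 under each alternative run, and 1131 and 1905 transcripts had an unadjusted p under 0.05. The rule of all pairs, chosen after seeing the data, gave 2342 higher and 2276 lower transcripts, and 1963 and 2612 with arrays shifted to the same median. With all 12 arrays, which adds 2 pairs, these were 490 and 424, and on leaving out 1 array with its pair they were between 3397 and 4862 and between 3468 and 3853, since fewer pairs have to go the same way. Of the 188 genes of the naming rule only Cers2 turned its sign, to -0.002 from 0.17, when the mean of all its transcripts was taken. Other genes given above, such as Ifit1 and Cyp51, are not among the 188. Of 3191 alternative values of named genes 3146 moved by less than the spread of the pairs, as did 578 of 612 list medians. Of the 44 named gene values that moved further, 38 did so with all 12 arrays. These shares do not measure robustness, since several alternatives could hardly move a value. A filter changes no gene's own difference, nor does dropping the replicate block from this balanced design. Leaving out 1 array keeps most of the same pairs. Levels near the floor of 4.5, such as those of Cd36 without fatty acids, limit what a difference can show, and the 8 arrays leave a median standard error of 0.10 for the fatty acid difference and 0.20 for its dependence on INT-767.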
